A study of Mus musculus with 56 samples.

Results

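Tgfb1, the gene of the ligand transforming growth factor β1 (TGF-β1), and Smad3, the gene of one of the proteins that carry its signal, were followed in mouse keratinocytes given TGF-β1. The members were the probes that the platform annotation ties to either symbol: 1 probe for Tgfb1 and 1 for Smad3, 2 of 9596 probes on the array. TGF-β1 is secreted in a latent complex, is freed by proteases, integrins and thrombospondin, and binds a pair of serine/threonine kinase receptors. The activated receptor phosphorylates SMAD2 and SMAD3, which form complexes with SMAD4 that gather in the nucleus and bind DNA. In skin the pathway is known for halting keratinocyte growth, and its known loops include induction of TGF-β1 by itself and induction of inhibitors such as SMAD7. The comparisons address both loops at the RNA level: whether added ligand moves its own RNA, and whether it moves the RNA of its mediator.

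Cells were isolated from the skin of newborn mice and received TGF-β1 at 1 ng/ml. Balb/c keratinocytes were either transduced in culture with a replication-defective retrovirus carrying the Ha-ras oncogene (ras keratinocytes) or left as primary cultures (primary keratinocytes), and both were treated for 1, 6, 24 or 48 h. A second set came from C57B1/SVJ mice that were Smad3-/- or Smad3+/+, again as ras and primary cultures, at 48 h alone, so genotype was compared within one background and not against Balb/c. Each 2-colour array set treated against untreated RNA of the same kind of cell, and a value is the log2 ratio of treated over untreated after subtracting the array's median. Ras keratinocytes had 6, 7, 6 and 4 arrays in use at 1, 6, 24 and 48 h, and primary keratinocytes 6, 7, 6 and 3, which makes 45 Balb/c arrays. The knockout and wild type sets had 1 array in use for each genotype and cell type. The 7 arrays of reversed dyes, 5 Balb/c and 2 knockout, were not pooled with the rest, because the sign of their deposited values is not settled.

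No source states which channel is on top of the ratio; the channel order makes treated over untreated the likely reading. With every array in use labelled the same way round, a lasting preference of a probe for one dye cannot be told apart from a response, although it would cancel in a difference between responses if constant. A ratio within an array gives no absolute level, so neither the loss of Smad3 RNA in Smad3-/- cells nor the keratinocyte identity could be checked from these values. In RNA of whole cultures, fewer cells of a type and less RNA per cell cannot be told apart. Nothing in the labels says which arrays came from separate cultures, so p-values measure the spread between arrays, part of which may be technical. Over the arrays in use, the SD over probes ran from 0.194 to 1.81, and no pair of arrays correlated above 0.654, so no array was counted as a repeat of another. Among marker genes at 48 h in primary keratinocytes, where 5.11% of features were called higher and 3.49% lower, 4 of 10 measured fibroblast markers and 3 of 10 immune markers were higher, 1 immune marker was lower, and 3 of 9 keratinocyte markers were lower. In ras keratinocytes at 48 h (1.9% higher, 1.61% lower), 1 fibroblast and 1 immune marker were higher and 1 keratinocyte marker was lower. At 24 h in ras keratinocytes (3.84% higher, 6.67% lower), 1 fibroblast, 1 immune and 1 keratinocyte marker were higher, and 1 immune and 1 of 3 melanocyte markers were lower. At 24 h in primary keratinocytes (0.348% higher, 1.01% lower), 1 immune marker was higher. The part of these marker shifts in the values below was not tested.

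Tgfb1 lies at chr7:25687002-25705077 on the plus strand and Smad3 at chr9:63646766-63757994 on the minus strand (RefSeq, GRCm38.p6). The 250 bases before each transcript start are printed because SMAD3 is known to bind the element CAGAC and because autoinduction of the human TGFB1 gene was mapped to AP-1 sites in its promoter. Both are 5′ to 3′ on the gene's strand, with capitals marking the GC-rich motif GGCGGG or its reverse complement CCCGCC. The Tgfb1 window is chr7:25686752-25687001 and the Smad3 window chr9:63757995-63758244.
Tgfb1: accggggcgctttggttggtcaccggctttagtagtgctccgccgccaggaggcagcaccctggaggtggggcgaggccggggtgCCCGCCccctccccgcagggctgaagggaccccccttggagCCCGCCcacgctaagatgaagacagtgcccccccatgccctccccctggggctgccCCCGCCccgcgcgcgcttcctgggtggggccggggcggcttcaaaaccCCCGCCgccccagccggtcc
Smad3: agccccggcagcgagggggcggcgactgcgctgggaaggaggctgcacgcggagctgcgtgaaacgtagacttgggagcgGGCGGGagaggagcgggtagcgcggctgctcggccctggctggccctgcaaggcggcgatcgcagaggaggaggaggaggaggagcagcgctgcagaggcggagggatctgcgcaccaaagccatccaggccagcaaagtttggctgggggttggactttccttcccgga
The Tgfb1 window was 75.2% GC and held GGCGGG 4 times, all on the minus strand, while the Smad3 window was 69.2% GC and held it 1 time, on the plus strand. The median window over all genes was 52.4% GC, and 32.5% of 32851 windows held GGCGGG on either strand. Neither CAGAC nor the AP-1 motif TGANTCA was found in either window on either strand. CAGAC was found in 42.2% and TGANTCA in 6.75% of all windows, and overlapping matches of different motifs were counted separately. The lack of a match says only that these letters are not in these 250 bases.

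Tgfb1 RNA, the ligand's own transcript, did not pass the test in any cell type at any time after TGF-β1 was added. Its mean log2 ratio over the 8 Balb/c groups, each weighted equally, was -0.03 (SE 0.06, 95% confidence interval -0.15 to 0.09), which as a ratio of treated over untreated spans 0.900 to 1.07. The probe was positive on 19 and negative on 26 of the 45 arrays, with a lowest value of -0.776 and a highest of 1.07. Within the Balb/c groups it was a quiet probe, with an SD between arrays of a group of 0.385, larger than that of only 32.7% of features. The knockout and wild type groups, with 1 array each in the fit, add nothing to that SD.

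At 1 h, Tgfb1 in ras keratinocytes had log2 ratios of -0.357 (lowest), 0.043 (median) and 0.741 (highest) over 6 arrays, against -0.569, -0.0735 and 0.541 in primary keratinocytes. Arrays above and below 0 were present in both cell types, and the ranges overlapped. At 6 h the values in ras keratinocytes were -0.776, -0.218 and 0.215 over 7 arrays, against -0.404, -0.079 and 0.506 in primary keratinocytes. Here 5 of 7 ras arrays and 4 of 7 primary arrays were below 0. At 24 h the values were -0.334, -0.0783 and 1.07 over 6 ras arrays, against -0.619, 0.265 and 0.652 over 6 primary arrays. The single array above 1 was ras replicate 1 at 24 h, and the other 5 ras arrays of that time lay at or below 0.199. At 48 h the 4 ras arrays had -0.076, -0.026, 0.182 and -0.094, against 0.0335, -0.322 and -0.332 on the 3 primary arrays. The groups overlapped at every time.

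Ordered by mean log2 ratio, the Tgfb1 responses ran from -0.29 at 6 h and -0.00 at 48 h to 0.08 at 24 h and 0.12 at 1 h in ras keratinocytes, against -0.21 at 48 h, -0.05 at 1 h, -0.01 at 6 h and 0.12 at 24 h in primary keratinocytes. The response farthest from 0 was that of ras keratinocytes at 6 h, at -0.29 (SE 0.15), with an interval of -0.58 to 0.01 and an adjusted p of 0.442. None of the 8 responses was called at an adjusted p under 0.05 (limma, Benjamini-Hochberg over 8905 features), against 0.0786%, 1.73%, 10.5% and 3.5% of all features in ras keratinocytes at 1, 6, 24 and 48 h and 0.0112%, 0.0112%, 1.36% and 8.6% in primary keratinocytes. Unadjusted, no Tgfb1 response had a p under 0.05 either, the lowest being 0.0577. Under the alternative settings of the fit none was called, but 2 came near. With array weights the response of primary keratinocytes at 24 h was 0.33 (SE 0.11, adjusted p = 0.0506). Over the alternatives it ran from -0.43 to 0.33. For ras keratinocytes at 6 h, the lowest adjusted p under an alternative was 0.0543. The intervals of the 8 responses reached up to 0.44, a 1.36-fold rise, and down to -0.66, or 0.633 of the untreated level, so changes of that size in a single group were not measured apart from 0.

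Ras and primary responses of Tgfb1 differed by 0.17, -0.28, -0.05 and 0.20 on the log2 scale at 1, 6, 24 and 48 h (ras minus primary). None of these differences was called, against 0, 0, 0.0449% and 0.202% of features. At 6 h the difference was below 0 in each of the 4 runs of consecutive experiment numbers that held both cell types, at -0.617, -0.169, -0.203 and -0.139. At 24 h it changed sign between runs, with -0.444, 0.818 and -0.557. With array weights the difference at 24 h was -0.52 (SE 0.18, adjusted p = 0.150), not called. Among all 28 pairs of Balb/c groups, no Tgfb1 difference was called, with 0 to 4.74% of features called depending on the pair (in primary keratinocytes 3.17% between 48 and 1 h, 1.66% between 48 and 24 h and 0.0561% between 24 and 6 h, and 0.0225% between ras at 48 h and primary at 6 h). No neighbours in the order above differed beyond their spread. The mean response at 24 and 48 h minus that at 1 and 6 h was 0.12 (SE 0.17) in ras and -0.01 (SE 0.18) in primary keratinocytes, neither called, against 1.27% and 1.93% of features.

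**Figure D1:**
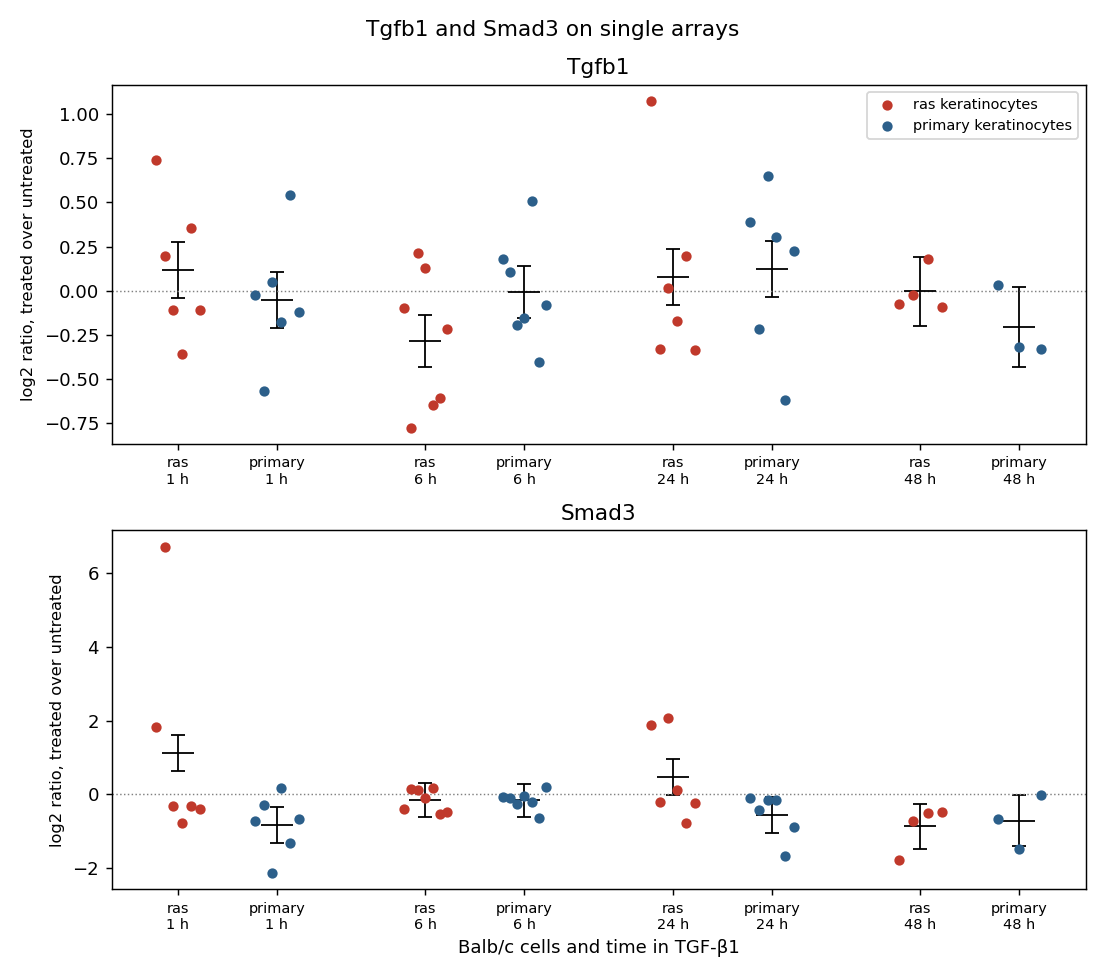
Log2 ratio of treated over untreated RNA (y axis) of Tgfb1 (upper panel) and Smad3 (lower panel) on each of the 45 Balb/c arrays in use, with ras keratinocytes in red left of primary keratinocytes in blue at 1, 6, 24 and 48 h; horizontal marks and bars are the group mean ± SE of the fit, and the panels have different y scales. Tgfb1 lay between -0.776 and 1.07 throughout, while Smad3 was spread more widely, with 1 ras array at 6.71 at 1 h and with 20 of 22 primary arrays below 0.

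Smad3 RNA, the transcript of the receptor-activated mediator, had values below 0 on 35 of 45 arrays: 15 of 23 ras arrays and 20 of 22 primary arrays. Its mean over the 8 groups was -0.21 (SE 0.19, interval -0.59 to 0.16), with an adjusted p of 0.422, which was not called, and 24.9% of features were called in this mean. As many or more negative arrays were seen for 3.16% of features. No single response was called. The SD between arrays of a group, pooled over the groups, was 1.24, larger than that of 92.9% of features. By group it ran from 0.258 in primary keratinocytes at 6 h to 2.89 in ras keratinocytes at 1 h. The SEs below use the pooled SD. With each group fitted alone, the SE in primary keratinocytes was 0.277, 0.113 and 0.209 at 1, 6 and 24 h, against 0.901 in ras keratinocytes at 1 h. No Smad3 response was called in those fits either.

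At 1 h the 6 ras arrays of Smad3 had 1.82, 6.71, -0.326, -0.765, -0.326 and -0.396, against -0.718, -0.294, -2.13, 0.16, -1.3 and -0.668 on the 6 primary arrays. Replicates 1 and 2 of the ras group stood far above the other 4, which lay inside the primary range. At 6 h the values in ras keratinocytes were -0.531 (lowest), -0.092 (median) and 0.166 (highest) over 7 arrays, against -0.644, -0.111 and 0.193 in primary keratinocytes. These ranges nearly coincided. At 24 h the 6 ras arrays had 1.87, -0.201, 2.07, 0.108, -0.785 and -0.235, against -0.105, -0.424, -0.153, -0.149, -1.67 and -0.877 on the 6 primary arrays. Replicates 1 and 3 of the ras group were high, and all 6 primary arrays were below 0. At 48 h the 4 ras arrays had -1.77, -0.717, -0.495 and -0.486, against -0.66, -1.48 and -0.006 on the 3 primary arrays. All 7 were below 0.

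The mean Smad3 responses in ras keratinocytes were 1.12 (SE 0.49), -0.15 (SE 0.45), 0.47 (SE 0.49) and -0.87 (SE 0.60) at 1, 6, 24 and 48 h, with adjusted p of 0.643, 0.968, 0.617 and 0.477. In primary keratinocytes they were -0.83 (SE 0.49), -0.16 (SE 0.45), -0.56 (SE 0.49) and -0.71 (SE 0.69), with adjusted p of 0.999, 0.998, 0.877 and 0.618. None of the 8 was called, and single arrays moved several of them. In ras keratinocytes the 24 h mean was 0.15 without replicate 3 and 0.19 without replicate 1, the 48 h mean was -0.57 without replicate 1, and the 6 h mean was -0.09 without replicate 7 and -0.10 without replicate 8. In primary keratinocytes the 6 h mean was -0.08 without replicate 6, the 24 h mean -0.34 without replicate 5, the 48 h mean -0.33 without replicate 2, and the 1 h mean -0.56 without replicate 3. The order from lowest to highest was ras at 48 h, primary at 1, 48, 24 and 6 h, then ras at 6, 24 and 1 h, and none of the 28 pairwise differences was called, although 4 had an unadjusted p under 0.05. An exact two-sided sign permutation test over the arrays of a group, run for both genes in all 8 groups (16 tests, unadjusted), gave p = 0.03125 for Smad3 in primary keratinocytes at 24 h, the smallest value 6 arrays allow. It gave 0.0625 or more in the other 15 tests, where groups of 4 and 3 arrays cannot go below 0.125 and 0.25.

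The largest ras minus primary difference of Smad3 was 1.95 at 1 h (SE 0.69), with an unadjusted p of 0.00772 and an adjusted p of 1. It rested on the 2 high ras arrays: with both left out, the ras response at 1 h was -0.45 and the difference 0.373, and without replicate 2 alone the response was 0.00. Within runs of experiment numbers the difference at 1 h was 2.62, 0.979 and 0.272. At 24 h it was 1.04 overall and 0.866, 0.89 and 0.642 within runs, above 0 in each but not called. At 6 and 48 h it was 0.01 and -0.15. Later minus earlier responses were -0.68 (SE 0.51) in ras and -0.15 (SE 0.54) in primary keratinocytes, neither called.

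One array decided whether the mean Smad3 response was called. Without ras replicate 2 at 1 h it was -0.35 (SE 0.11, adjusted p = 0.0208), where 23.8% of features were called. Across leaving out each of the 45 arrays in turn, the mean ran from -0.35 to -0.16. On that array Smad3 stood above 99.84% of features, and 91 features, 1.02%, lay beyond 4 in either direction. Robust regression, which gives outlying arrays less weight, put the mean at -0.38 (adjusted p = 2.13e-05), where 51% of features were called. It also called the response of ras keratinocytes at 48 h (-0.76, adjusted p = 0.00907, 26.4% of features called) and those of primary keratinocytes at 1 h (-0.75, adjusted p = 0.0252, 2.11%) and 48 h (-0.66, adjusted p = 0.0474, 30.5%).

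The 3 reversed ras arrays gave Smad3 values of 0.169, 0.153 and -0.116 as deposited at 6, 24 and 48 h, and the 2 reversed primary arrays -0.257 and -0.433 at 48 h. With these and the reversed knockout arrays in the fit, the mean Smad3 response was -0.18 with the sign as deposited and -0.15 with the sign turned, neither called. With a term for the dyes in the fit as well, it was 0.01 (SE 0.27) with the sign as deposited and 0.17 (SE 0.27) with the sign turned, neither called. For Tgfb1 the fits with the dye term gave -0.47 (SE 0.19, adjusted p = 0.429) and 0.10 (SE 0.18, adjusted p = 0.775). A preference of the Smad3 probe for one dye and a response of the Smad3 gene cannot be told apart here.

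**Figure D2:**
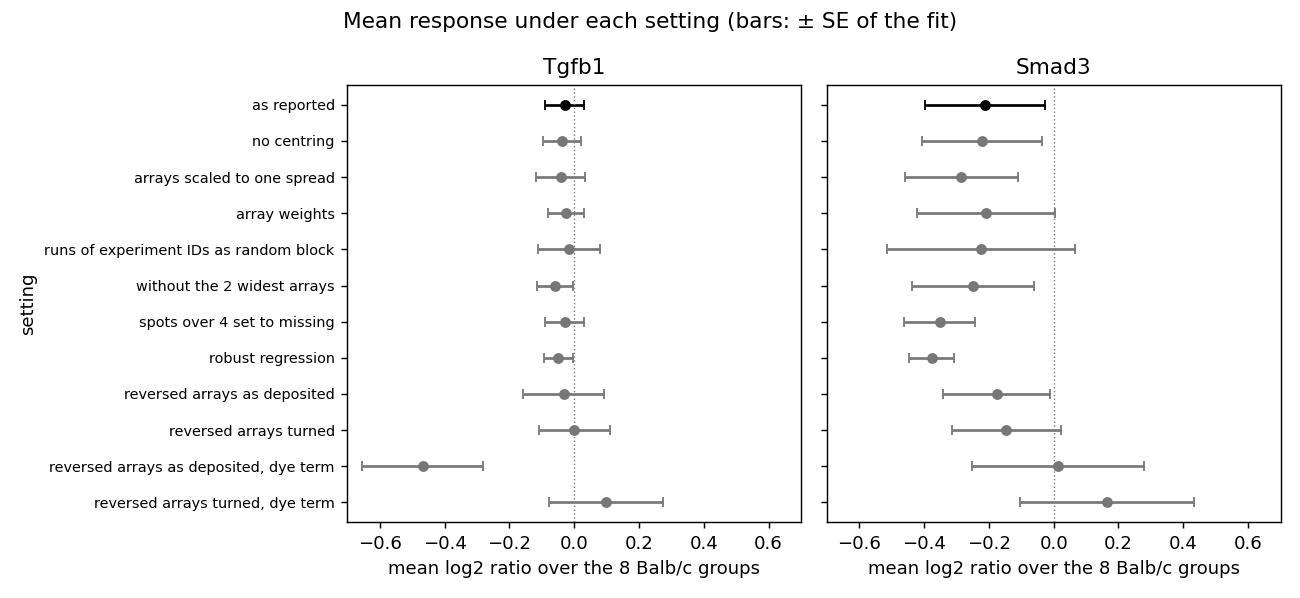
Mean log2 ratio over the 8 Balb/c groups (x axis) of Tgfb1 (left) and Smad3 (right) under the reported setting in black and 11 others in grey (y axis), with bars of ± SE of the fit. Tgfb1 stayed near 0 except with the reversed arrays as deposited and a dye term (-0.47), and Smad3 ran from -0.38 under robust regression to 0.17 with the reversed arrays turned and a dye term.

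The comparison of Smad3 genotypes addresses whether the response of the ligand's gene differs without the mediator. At 48 h Tgfb1 had a log2 ratio of 5.69 in Smad3-/- ras keratinocytes, against 0.258 in Smad3+/+ ras keratinocytes. In primary cultures it had -0.752 in Smad3-/- cells, against -0.377 in Smad3+/+ cells. The knockout ras array stood alone: its Tgfb1 value was above 99.98% of features on that array, where 27 features (0.303%) lay beyond 4, and it exceeded the Tgfb1 value of every other array. The reversed repeats of the knockout groups gave -1.31 as deposited in ras cells and -3.92 in primary cells. Neither is near the value of its partner array with either sign. Over all features, as deposited, these arrays correlated with their partners at 0.412 in ras and 0.482 in primary cells.

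Averaged over both cell types, the Tgfb1 response was 2.53 higher in knockout than in wild type cells on the log2 scale (SE 0.39, interval 1.74 to 3.32), with an adjusted p of 2.31e-05, a comparison in which 1.74% of features were called. That p assumes that the single array of each group varies like the arrays of the Balb/c groups. The difference was 5.43 in ras cells and -0.38 in primary cells, so its direction rests on the knockout ras array. With the reversed arrays included as deposited it was -0.01 (adjusted p = 1), and with a dye term 0.54 as deposited or 2.47 turned (adjusted p = 0.0885), none of these 3 called. With the reversed arrays turned and no dye term it was 2.60 (adjusted p = 0.0364) and stayed called.

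Smad3 itself had a log2 ratio of -0.682 in Smad3-/- ras keratinocytes, against -0.307 in Smad3+/+ ras keratinocytes. In primary cultures it had -2.79 in Smad3-/- cells, against -0.835 in Smad3+/+ cells. All 4 arrays were below 0, as were all 7 Balb/c arrays in use at 48 h. The knockout minus wild type difference was -1.17 (SE 1.20) and was not called. The reversed repeats gave -1.04 in knockout ras and 0.015 in knockout primary cells as deposited. Where the probe lies relative to the deleted part of the gene is not given in the sources used here, so this value does not check the genotype label.

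**Figure D3:**
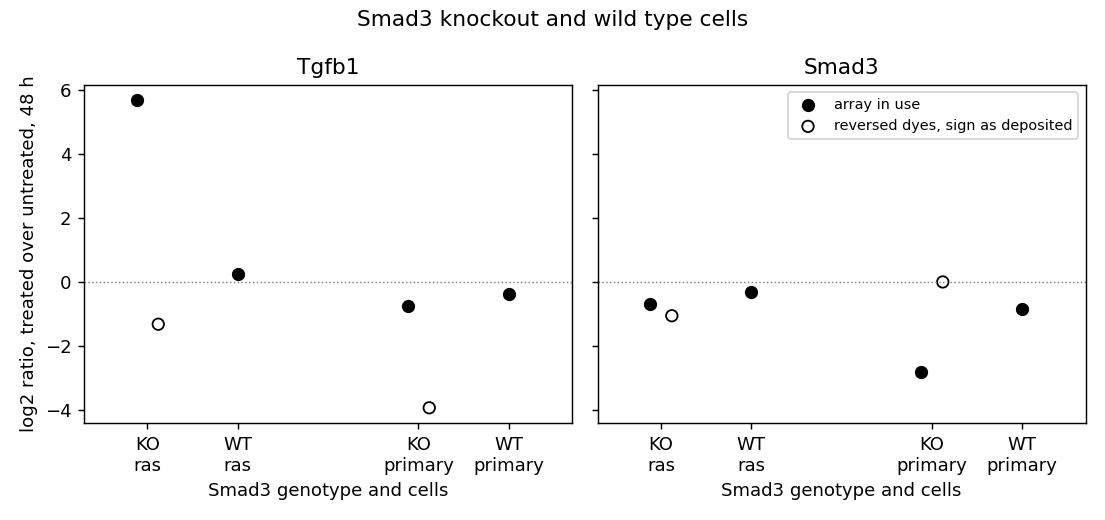
Log2 ratio of treated over untreated RNA at 48 h (y axis) of Tgfb1 (left) and Smad3 (right) in Smad3 knockout and wild type ras and primary keratinocytes (x axis), 1 point per array, filled for arrays in use and open for arrays of reversed dyes with the sign as deposited. The Tgfb1 value of 5.69 on the knockout ras array stands apart from its reversed partner at -1.31 and from the wild type values of 0.258 and -0.377.

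Around both genes, 61 other genes of the TGF-β pathway were measured of 109 listed, and 19 of the 61 were called in at least 1 Balb/c response, against 20.7% of all features. Of the 19, 13 were called higher and never lower, 5 lower and never higher, and 1, Klf10, in both directions. Called higher in ras keratinocytes at 1, 6, 24 and 48 h were 3, 4, 6 and 6 of the 61, against 0.0674%, 1.36%, 3.84% and 1.9% of all features, and called lower were 0, 1, 3 and 1, against 0.0112%, 0.371%, 6.67% and 1.61%. In primary keratinocytes 1, 0, 3 and 9 were called higher, against 0.0112%, 0, 0.348% and 5.11% of features, and 0, 0, 0 and 1 lower, against 0, 0.0112%, 1.01% and 3.49%. With single arrays left out, the calls in both directions together ran from 0 to 3, 1 to 5, 4 to 9 and 2 to 9 in ras keratinocytes and from 0 to 1, 0, 2 to 3 and 6 to 10 in primary keratinocytes. Of the 38 calls, 10 stood without each single array of their group: Skil at 6 h, Mmp2 and Plau at 24 h and Thbs1 at 48 h in ras keratinocytes, and Tgfb3, Ltbp2, Bgn, Mmp2, Mmp9 and Fkbp1a at 48 h in primary keratinocytes. The other 28 ended without at least 1 array. With the reversed arrays included as deposited and a term for the dyes, Fkbp1a was the only one of the 10 still called. It stayed called in every other setting run for these genes, except with groups fitted alone. In that setting no pathway gene was called in primary keratinocytes at 48 h. The medians of the 61 mean log2 ratios were 0.09, 0.12, 0.05 and 0.22 in ras keratinocytes, against -0.03, 0.00, 0.08 and 0.09 in primary keratinocytes.

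Of the 6 ligand genes measured, Tgfb1 included, 1 was called in at least 1 Balb/c response, where 20.7% of all features were. That gene was Tgfb3, which codes for TGF-β3, at 1.87 (SE 0.35, adjusted p = 0.000406) in primary keratinocytes at 48 h, where 5.11% of features were called higher. It stayed called without each of the 3 arrays in turn, but not with the reversed arrays included as deposited. In ras keratinocytes at 48 h Tgfb3 was at 0.91 (SE 0.31, adjusted p = 0.0832) and positive on 4 of 4 arrays. Tgfb2, the gene of TGF-β2, was called nowhere, with estimates from -0.61 to 1.23.

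Of 13 measured genes listed under latency and activation of the ligand, 4 were higher in ras and 6 in primary keratinocytes at 48 h. Of all features 1.9% and 5.11% were, and the medians of the 13 were 0.65 and 0.93. Thbs1, the gene of thrombospondin-1, an activator of latent TGF-β1, rose by 1.11 in ras and 0.93 in primary keratinocytes at 48 h. The metalloprotease genes Mmp9 and Mmp2, whose products can free the ligand, rose by 1.81 and 0.92 in ras and 2.74 and 1.83 in primary keratinocytes at that time. Without ras replicate 3, Mmp9 was at 0.91 in ras keratinocytes and not called. In primary keratinocytes at 48 h, Ltbp2, by name a latent TGF-β binding protein family member, rose by 2.07 and Bgn, the TGF-β-binding proteoglycan biglycan, by 2.13. Whether the Ltbp2 product holds the ligand was not tested. Itgav, the αv integrin chain that activates latent ligand, fell by 1.18 there (adjusted p = 0.0308), but was at -0.57 and not called without replicate 2. Plau, the urokinase gene, rose by 0.91 in ras keratinocytes at 24 h. Mmp14, another metalloprotease gene, rose by 0.49, 0.52 and 0.77 in ras keratinocytes at 6, 24 and 48 h. It rose by 0.73 in primary keratinocytes at 48 h, and each of its calls ended when some single arrays were left out. The shifts in fibroblast and immune markers given above were seen in the same primary arrays at 48 h. Fibroblasts also express several of these genes, and the part of other cells in these values was not tested.

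Of 7 receptor genes measured, 2 were called in at least 1 Balb/c response, where 20.7% of all features were. Bmpr2, a receptor of the BMP branch, was lower in ras keratinocytes at 48 h (-1.48, adjusted p = 0.0248, but -0.55 and not called without replicate 3) and Cd109, a TGF-β co-receptor, was lower in ras keratinocytes at 24 h (-0.48). Tgfbr2, the gene of the receptor that binds TGF-β1 first, was called in no single response. Its estimates ran from -0.75 to 0.20, the lowest in primary keratinocytes at 48 h (adjusted p = 0.0519, negative on 3 of 3 arrays). Its mean over the 8 groups was -0.19 (adjusted p = 0.031), where 24.9% of all features were called. Tgfbr1 and Tgfbr3 had no probe with a single symbol and were not measured here.

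No SMAD that carries the signal was called in any Balb/c response, where 20.7% of all features were called in at least 1. Smad2, the other mediator of TGF-β1, ranged from -0.23 to 0.34, and Smad4, the shared partner, from -0.03 to 0.41. Smad1, of the BMP branch, ranged from -0.24 to 0.33, and Smad5, of the same branch, from -0.00 to 0.28. In the mean over the 8 groups, where 24.9% of all features were called, Smad5 (0.17, adjusted p = 0.00411) and Smad4 (0.16, adjusted p = 0.0334) were called higher. Smad1 (0.01) and Smad2 (0.08) were not called in it.

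Of 15 measured inhibitors of the pathway, 2, 3, 0 and 2 were called higher in ras keratinocytes at 1, 6, 24 and 48 h, against 0.0674%, 1.36%, 3.84% and 1.9% of all features. In primary keratinocytes 0, 0, 0 and 2 were called higher, against 0.0112%, 0, 0.348% and 5.11%, and 1 was called lower, in ras keratinocytes at 24 h, where 6.67% of features were. Skil, the gene of the SMAD corepressor SnoN, rose in ras keratinocytes at 1, 6 and 48 h by 1.34, 0.96 and 0.92, and in primary keratinocytes at 48 h by 0.96. Smad7, the inhibitory SMAD that blocks the receptor, rose in ras keratinocytes at 1 and 6 h by 1.16 and 0.86. In primary keratinocytes at 1 h Smad7 was at 0.98 and Skil at 1.02, each positive on 6 of 6 arrays, with adjusted p of 0.336 and 0.129 in a response where 1 feature was called. Fkbp1a, a keeper of the type I receptor's resting state, rose at 48 h by 0.63 in ras and 1.04 in primary keratinocytes, and Smurf2, a ubiquitin ligase for receptors and SMADs, rose by 0.46 in ras keratinocytes at 6 h. Smad6, the inhibitory SMAD of the BMP branch, fell by 1.22 in ras keratinocytes at 24 h (adjusted p = 0.00947), but was at -0.76 and not called without replicate 3.

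Among 10 measured regulators of the ligand's gene and 7 measured partners of SMAD3, 3 were called in at least 1 Balb/c response, a share below the 20.7% of all features. Klf10, an early TGF-β response gene that codes for a zinc finger factor, rose at 1 h by 0.76 in ras and 0.84 in primary keratinocytes, and was lower in ras keratinocytes at 24 h (-0.57). Myc, which SMAD3 complexes are known to repress, fell by 1.18 in ras keratinocytes at 6 h. Runx1, a transcription factor that can bind with SMAD3, rose by 0.62 in ras keratinocytes at 24 h. None of the 61 genes was called in a ras minus primary difference, against 0, 0, 0.0449% and 0.202% of all features at 1, 6, 24 and 48 h.

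**Figure D4:**
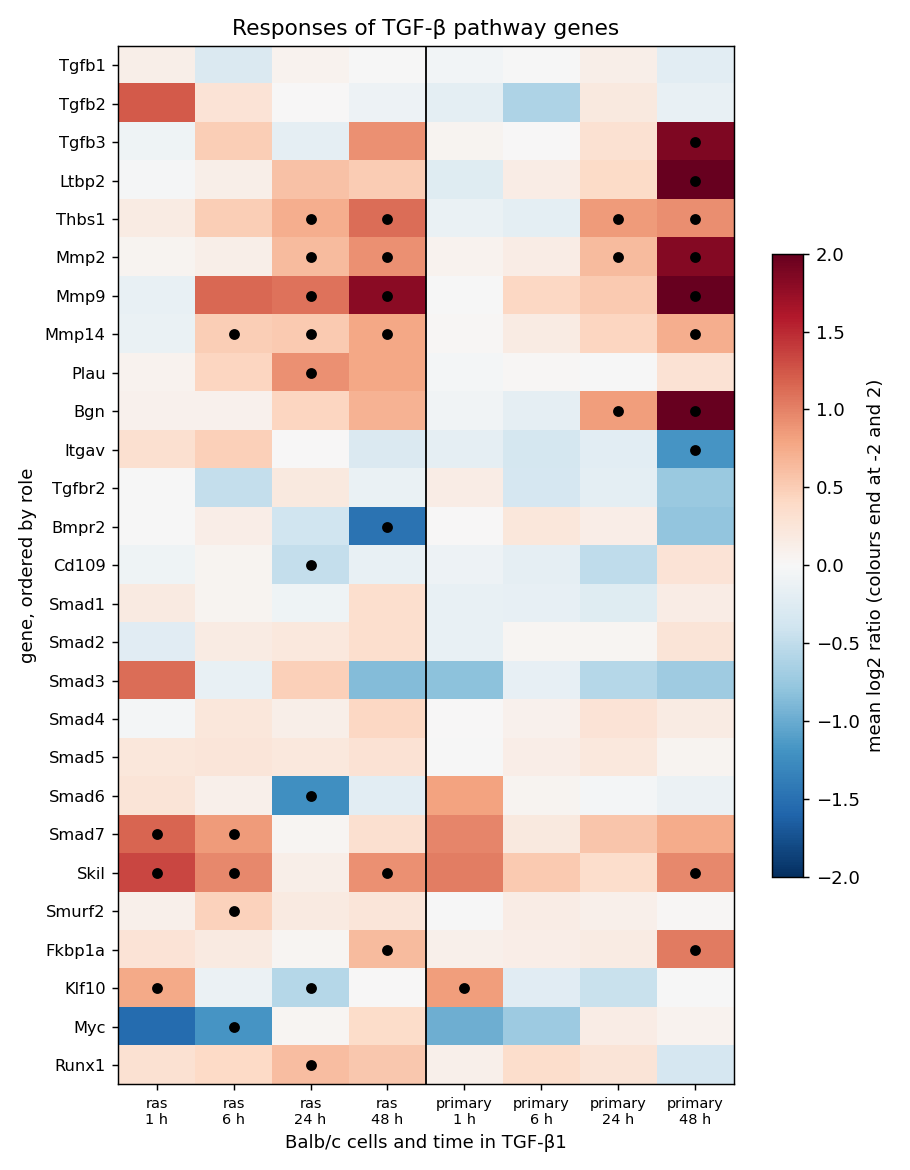
Mean log2 ratio of treated over untreated RNA (colour, red higher and blue lower) of Tgfb1, Smad3 and the named pathway genes (rows, from ligands through activation genes, receptors, SMADs and inhibitors to regulators and partners) in the 8 Balb/c responses (columns, ras left of primary); a black dot marks an adjusted p under 0.05. The Tgfb1 and Smad3 rows have no dot, Skil has 4 and Smad7 has 2.

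Across the 45 arrays, Tgfb1 and Smad3 followed each other weakly, with a Spearman correlation of 0.13 and a Pearson correlation of 0.27. Ranked over 6794 named genes by Spearman correlation across the same arrays, those most like Tgfb1 were Larp1b (0.67), Slc22a17 (0.65), Lce1h (0.63), Tead1 (0.62) and Exoc6 (0.62), and those most opposed were Rbm3 (-0.58), Prdx1 (-0.58) and Lrif1 (-0.57). Those most like Smad3 were Septin1 (0.79), Art5 (0.77), Pde1c (0.70), Wnt10b (0.69) and Ppfia1 (0.68), and those most opposed were Rbm43 (-0.70), Micu3 (-0.64) and Lhfpl2 (-0.63). The points share arrays, dye order and groups of the same cultures, so these values describe likeness over these arrays.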

How the data were processed

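Treated and untreated RNA was compared on 56 2-colour arrays. The authors deposited 1 value per probe and array, taken here to be a log2 ratio, since no source names the base. How the authors scanned the arrays, corrected background and normalized is not given in the sources consulted. Array medians of these deposited log2 values were -0.146 to 0.02. Of 9596 probes, 7486 had 1 gene symbol, 483 several and 1627 none in the platform annotation, and 7395 were matched to RefSeq names. The median of each array was subtracted and probes of a gene were averaged, giving 8905 features.

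Responses were tested with limma 3.58.1 (lmFit, eBayes) in R 4.3.3, in 1 fit of 49 arrays with treated RNA in Cy5, with two-sided p-values adjusted over all features by Benjamini-Hochberg and a threshold of 0.05. Intervals are 95%. With no spot brightness used, precision was limited by how many arrays a group had. The fit was tested on simulated data.

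The 5 reversed Balb/c arrays correlated with the mean of their group at -0.0655 to 0.129 (median 0.0494). Balb/c arrays in use ran from -0.155 to 0.44 (median 0.193), which spans the reversed arrays, so the sign of those was not settled. The arrays in use of primary keratinocytes at 1 h ran from -0.155 to 0.102. As deposited, the 2 reversed knockout arrays correlated with their partner arrays at 0.482 in primary and 0.412 in ras cells. Balb/c arrays in use reached at most 0.44 with the mean of their group. The reversed knockout arrays were left out with the reversed Balb/c arrays. Runs of experiment numbers start anew after a gap over 500, 6 in all; what a run stands for is not stated. Same-numbered ras and primary arrays of a time correlated at -0.233 to 0.39 over 19 pairs, 5 of them over 0.1, so numbers were not taken to pair arrays.

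The genes, lists, tests and alternatives were chosen with earlier results of these data known. Beyond Tgfb1 and Smad3, the rule names Tgfb2, Tgfb3, the TGF-β receptors, Smad1, Smad2 and Smad4 to Smad7 and Skil where measured, up to 6 other genes of a list that were called in a Balb/c response, by size, and the 5 most and 3 least like genes over arrays. Plau and Mmp14 are named beyond this rule. Motifs were searched in the RefSeq GRCm38.p6 promoter windows.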

Additional observations from a re-analysis of the deposited data

Results flagged for a closer look

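In 42 groups of 4 to 10 arrays that were checked for a value far from the others, 4 values stood apart by Dixon's test, and chance alone gives about 1 group in 20. Smad3 in ras keratinocytes at 1 h had 6.711 on replicate 2, against a next highest value of 1.82, and this array decided the call of the mean response. Thbs1 in primary keratinocytes at 24 h had 2.067 on replicate 6. Skil in ras keratinocytes at 6 h had -0.005 on replicate 6, below the other 6 arrays of the group. Bmpr2 in ras keratinocytes at 48 h had -4.2585 on replicate 3, and without that array its response was -0.55.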

How the results depend on the processing

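Of 831 member results under alternatives, 744 kept direction and side of the threshold, and 77 changed sign, 2 of them of a called value. The smallest groups had 3 and 4 arrays at 48 h and 1 per genotype and cell type. Values below are log2 (ras minus primary written as difference) and the cause of each change was not tested. With arrays left out one at a time, Tgfb1 ran from -0.0058 to 0.214 (ras 1 h), -0.124 to 0.158 (ras 24 h), -0.0653 to 0.0265 (ras 48 h), -0.169 to 0.0534 (primary 1 h), -0.0909 to 0.0608 (primary 6 h), -0.247 to 0.059 (difference at 24 h) and -0.0741 to 0.0600 (late minus early, primary). Smad3 ran from -0.0737 to 0.0696 (difference at 6 h), -0.535 to 0.200 (difference at 48 h), -0.322 to 0.0454 (late minus early, primary) and -0.352 to -0.164 (mean, called without ras 1 h replicate 2). Counts of called pathway genes ran from 0 to 3, 1 to 5, 4 to 9 and 2 to 9 in ras keratinocytes at 1, 6, 24 and 48 h, and from 0 to 1 and 6 to 10 in primary keratinocytes at 1 and 48 h. With reversed arrays as deposited, Tgfb1 was at -0.0329 (difference at 48 h), 0.037 (late minus early, primary) and -0.0115 (knockout minus wild type), and called pathway genes numbered 0, 0 and 3 in primary keratinocytes at 1, 24 and 48 h and 1, 0, 2 and 3 in ras keratinocytes at 1, 6, 24 and 48 h. With a dye term as well, Tgfb1 was at -0.437 (ras 1 h), -0.335 (ras 24 h), -0.433 (primary 24 h), 0.0981 (difference at 24 h), -0.255 (difference at 48 h), 0.259 (late minus early, primary) and 0.544 (knockout minus wild type). Smad3 was at 0.0667 (ras 6 h), 0.0798 (primary 6 h), -0.013 (difference at 6 h) and 0.0131 (mean), and counts were 0 in ras keratinocytes at all times and 1, 0, 0 and 3 in primary keratinocytes. With reversed arrays turned, Tgfb1 was at 0.132 (ras 48 h), 0.000701 (mean) and 0.0174 (late minus early, primary), Smad3 at 0.0666 (late minus early, primary), and counts were 0 (primary 1 h), 4 (ras 24 h) and 2 (ras 48 h). With a dye term as well, Tgfb1 was at 0.207 (ras 48 h), 0.0755 (primary 1 h), 0.12 (primary 6 h), 0.0992 (mean) and 2.47 (knockout minus wild type). Smad3 was at 0.142 (ras 6 h), 0.236 (primary 6 h), -0.0944 (difference at 6 h) and 0.165 (mean), and counts were 3, 2 and 1 in ras keratinocytes at 6, 24 and 48 h and 0 in primary keratinocytes at 1 h. Arrays scaled to one spread gave Tgfb1 -0.0661 (ras 24 h), 0.112 (primary 6 h) and 0.00214 (late minus early, primary), with counts of 5 and 3 (ras 1 and 24 h) and 0 and 6 (primary 1 and 24 h). Array weights gave Tgfb1 -0.191 (ras 24 h), 0.21 (primary 6 h) and 0.0305 (late minus early, primary), Smad3 -0.0784 (ras 24 h) and -0.0329 (difference at 6 h), and counts of 5 and 17 (ras 1 and 6 h) and 2 and 10 (primary 1 and 24 h). Groups fitted alone called 0 pathway genes in all groups except 6 in ras keratinocytes at 6 h. Runs as a random block gave Tgfb1 0.0349 (ras 48 h) and 0.00392 (late minus early, primary) and a count of 2 (primary 1 h). Without the 2 widest arrays Tgfb1 was at -0.124 (ras 24 h) and 0.00129 (late minus early, primary), with a count of 4 (ras 24 h). The Smad3 difference at 6 h was -0.0262 with runs as a fixed block and -0.0063 with the replicate block, which changed no call; the numbers were not taken to pair arrays. The exact permutation test passed Smad3 in primary keratinocytes at 24 h (-0.56).

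Alternatives added after seeing the data were robust regression, spots beyond 4 set to missing, 2 ras arrays left out, and each cell type alone. Robust regression put Tgfb1 at -0.0475 (ras 24 h) and 0.0338 (late minus early, primary), and Smad3 at -0.151 (ras 1 h), -0.764 (ras 48 h), -0.746 (primary 1 h), -0.66 (primary 48 h) and -0.376 (mean). Missing spots put the Smad3 mean at -0.352. Without ras replicates 1 and 2 at 1 h, Smad3 was at -0.453 (ras 1 h), -0.409 (mean) and 0.105 (late minus early, ras). In primary cells alone the Tgfb1 knockout minus wild type difference was -0.375. Leaving out the 1805 probes beyond 4 on any array gave no value, since neither Tgfb1 nor Smad3 remained.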
